A study of Mus musculus with 24 samples.

Results

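Enteroendocrine cells are the hormone-producing cells of the gut epithelium. They are thinly scattered among absorptive and mucus-producing cells, arise from the same crypt progenitors, and sense the contents of the lumen. The transcription factor NEUROG3 starts their formation, NEUROD1 acts further along the same route, and the mature cells store peptide hormones or serotonin in granules that also hold chromogranins. Which hormone is made differs along the gut, with CCK and secretin being typical of the proximal small intestine and PYY and glucagon-derived peptides of the distal gut. The results below follow 10 genes of these cells (Neurog3, Neurod1, Chga, Chgb, Tph1, Gcg, Cck, Pyy, Sct and Nts), which were taken by name and found among the 45706 gene identifiers of both count tables. All 10 passed the main filter on low counts. With at least 10 counts asked of every library, Pyy was not tested in SI or in the joint fit of both tissues.

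The libraries were mRNA sequencing libraries of organoids, which are epithelial mini-tissues grown from crypts of the proximal small intestine (SI) or the colon (COL) of C57BL/6N mice. Each tissue had 3 donor cultures with the genotypes BraffloxV600E/+;Villin::CreERT2 (BRAF), Trp53LSL-R172H/+;Villin::CreERT2 (p53) and BraffloxV600E/+;Trp53LSL-R172H/+;Villin::CreERT2 (BRAFp53). All of them carried a tamoxifen-activated Cre under the epithelial Villin promoter. In the on groups, 4-hydroxytamoxifen (4-HT, 0.5 µM for SI and 3.5 µM for COL) was given for 24 h, and the off groups received ethanol. RNA was taken at day 8 in SI and at day 3 in COL, and COL medium also held Wnt3a and CHIR99021, so tissue cannot be told apart from dose, time and medium. Each of the 12 groups had 2 libraries of the same donor culture, so a spread is one of handling and not of animals, and a genotype cannot be told apart from its donor. In these bulk libraries, fewer cells of a type and less RNA per cell cannot be told apart either.

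Library totals were 51.2 to 78.2 M counts in COL and 44.4 to 68.2 M in SI, and 3 counts, taken as the detection limit, equalled 0.0408 to 0.0774 CPM (counts scaled to 1e+06 per library, with TMM factors within a tissue). The tissues are described by a pair of genes picked after their values were seen, which cannot test the labels. Car1, a colonic carbonic anhydrase, had means of 1492 to 17582 CPM in the COL groups and at most 12 counts in an SI library. Lct, an enterocyte lactase, had at most 20 counts in a COL library and at least 188 in SI. Group means of the sum of 7 listed small intestinal genes overlapped, with 663 to 2125 CPM in COL and 2031 to 9379 in SI. Those of 7 listed colonic genes were 1528 to 17845 CPM in COL and 3.20 to 40.6 in SI. In the test of off cultures given below, 4 of the 7 small intestinal genes passed as lower in COL and 1 as higher. Of the colonic genes, 4 were tested and 2 passed as higher. The COL BRAF culture nonetheless held Gata4, a factor of the proximal gut, at an off mean of 51.0 CPM, nearer to the 75.0 to 107 of SI than to the 1.54 and 2.42 of the other COL cultures, and which stretch of colon it came from is not given in the sources used here. Trp53 means were higher in on than off in the p53 culture (233 against 448 CPM in COL and 145 against 246 in SI), and those of Dusp6, an ERK feedback phosphatase, in the BRAF culture (41.8 against 132 in COL and 8.14 against 69.9 in SI). The cultures also differed in Ddx3y, a Y-linked gene, with 2405 to 4690 counts in the COL libraries, 1378 to 1881 in SI BRAF and at most 4 in the other SI cultures, and in Xist, an RNA of female cells, with at most 3 counts in COL. By these genes, SI BRAFp53 differed in donor sex from SI BRAF and from COL BRAFp53, and so did 2 of the 3 SI cultures from the COL cultures in the comparison of off tissues, and the part of sex was not tested. Replicate 1 of the SI BRAF on group stood apart. It held 770 counts of Xist against 8 in replicate 2 and 12 and 27 in the off libraries of that culture, while the other SI cultures held 6123 to 9743. It also held 3926 counts of the stem cell gene Olfm4 against 352 in replicate 2. Fold changes and list counts of the SI BRAF culture are therefore given also without this library.

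NEUROG3 and NEUROD1 belong to the basic helix-loop-helix factors, which bind the E-box CANNTG. The 250 bases before the RefSeq start (GRCm38.p6, 5′ to 3′ on the gene's strand) are shown for Sct and Pyy, which passed the test in all 4 BRAF-bearing cultures, for Tph1, which passed in both of COL, and for Neurog3, which passed in none of the 6 on against off comparisons. Capitals mark each E-box. The motif reads the same on both strands, and no marked copies overlap.
Sct, chr7:141279134-141279383, minus strand: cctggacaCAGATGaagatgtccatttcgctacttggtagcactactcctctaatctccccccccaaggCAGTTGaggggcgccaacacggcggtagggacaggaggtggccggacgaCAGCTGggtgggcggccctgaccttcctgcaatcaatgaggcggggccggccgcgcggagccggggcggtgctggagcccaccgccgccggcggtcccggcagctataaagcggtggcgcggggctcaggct
Pyy, chr11:102107833-102108082, minus strand: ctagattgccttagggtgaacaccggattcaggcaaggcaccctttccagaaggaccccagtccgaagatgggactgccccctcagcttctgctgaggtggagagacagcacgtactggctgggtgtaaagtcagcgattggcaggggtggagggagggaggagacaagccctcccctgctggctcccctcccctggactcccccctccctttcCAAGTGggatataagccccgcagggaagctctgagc
Tph1, chr7:46672538-46672787, minus strand: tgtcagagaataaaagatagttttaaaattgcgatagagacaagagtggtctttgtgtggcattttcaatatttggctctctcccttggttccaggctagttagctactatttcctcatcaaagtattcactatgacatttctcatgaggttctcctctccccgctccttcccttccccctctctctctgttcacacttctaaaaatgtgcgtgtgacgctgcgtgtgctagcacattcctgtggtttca
Neurog3, chr10:62132840-62133089, plus strand: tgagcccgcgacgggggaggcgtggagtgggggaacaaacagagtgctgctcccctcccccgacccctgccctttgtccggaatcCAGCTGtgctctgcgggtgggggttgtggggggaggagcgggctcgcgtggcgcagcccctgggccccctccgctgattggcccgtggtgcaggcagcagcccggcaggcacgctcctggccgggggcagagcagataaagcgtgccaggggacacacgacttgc

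The Sct window held 3 E-boxes, starting 242, 181 and 132 bases before the start. Pyy held 1 at 36 bases, Neurog3 held 1 at 165 bases, and Tph1 held none in these letters. All 10 genes had a window in the table, 9 of them with at least 1 E-box and 4 (Chga, Gcg, Cck and Sct) with at least 3. Of all 32851 windows of this length, 66.2% held at least 1 and 12.2% at least 3. A match describes the letters only.

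In COL organoids, induction raised 6 of the 10 transcripts with BRAFV600E alone and 4 with BRAFV600E and p53R172H together, and lowered none. In SI organoids, 3 and 2 rose, again with none lower. These counts and the genes named next are from fits of all libraries of a tissue. Sct and Pyy rose in all 4 BRAF-bearing cultures, Tph1 and Chgb in both in COL, Nts in the BRAF culture of each tissue and Gcg in COL BRAF, while Neurog3, Neurod1, Chga and Cck were called in none. Genes were called at an adjusted p under 0.05 in the edgeR quasi-likelihood test over all genes of a fit, and the same rule called 10.3% of genes higher and 9.61% lower in COL BRAF, 9.95% and 7.76% in COL BRAFp53, 17.5% and 14.2% in SI BRAF, and 6.98% and 4.53% in SI BRAFp53. The COL counts of 6 and 4 of 10 stood further from these shares than the SI counts of 3 and 2 of 10. With the 4 SI BRAFp53 libraries alone, Chga and Nts were called lower (edgeR adjusted p = 0.00556 and 0.0263). Neurog3, Chgb and Tph1 were then called higher, beside 1373 genes higher and 783 lower of 15325. The median log2 fold change of the 10 genes was 1.19 in COL BRAF, 0.78 in COL BRAFp53, 0.60 in SI BRAF and 0.50 in SI BRAFp53, and also 0.50 in COL p53 and 0.43 in SI p53, beside medians of all genes between -0.06 and 0.0028. The values were positive for 9 of the 10 genes in COL p53 and 8 in SI p53, against 9, 8, 6 and 7 in the BRAF-bearing cultures in the order given, so that the p53 medians were close to that of SI BRAFp53. Without the SI BRAF on library that stood apart, the SI BRAF median was 0.27, and 3 of the 10 genes were called higher and 0 lower. With the filter on low counts, p53R172H alone gave no called gene among the 10 in either tissue with edgeR, DESeq2 or limma-voom. Without it, edgeR called Chga, Chgb, Gcg and Pyy higher in COL p53, beside 194 genes higher and 375 lower of 30407. With the filter, 3 had an unadjusted p under 0.05 in COL p53 (Chga, Chgb and Pyy, all with positive values) and 0 in SI p53. Over all genes, 0.0316% were called higher and 0.111% lower in COL p53, and 0% and 0% in SI p53, where DESeq2 called 65 genes and limma-voom 1.

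**Figure D1:**
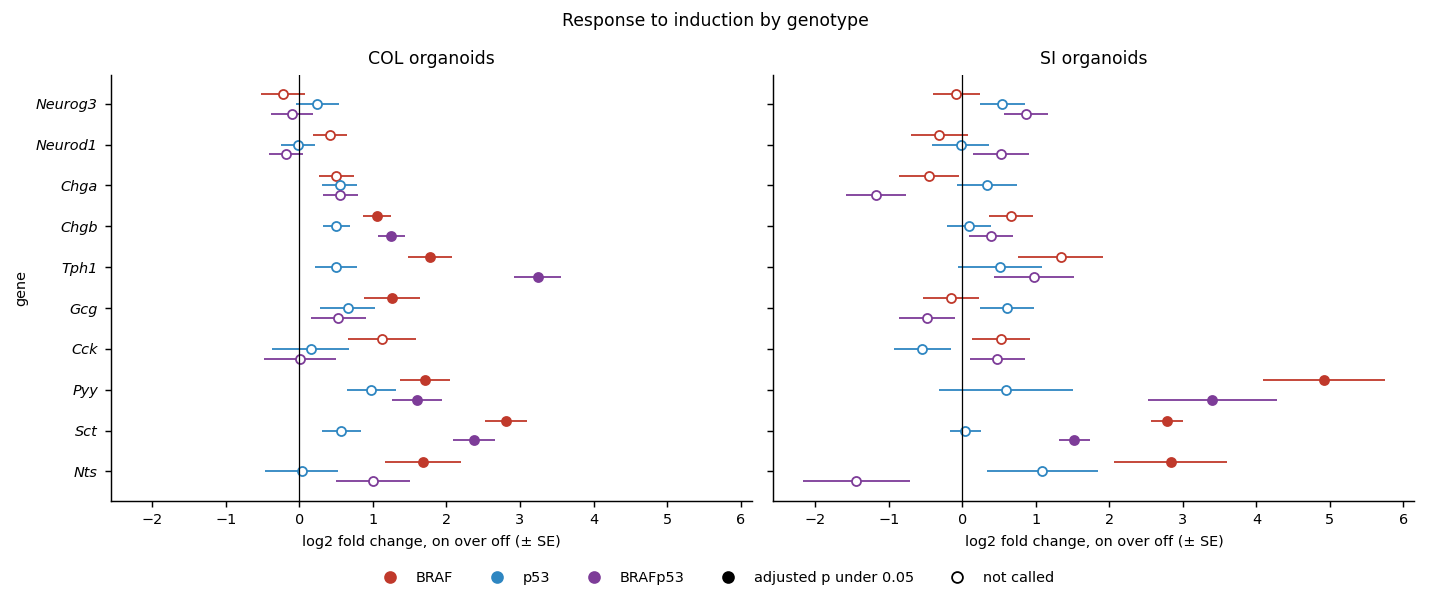
Log2 fold change (on over off, edgeR, bars are SE) of the 10 genes in COL (left) and SI (right) for BRAF (red), p53 (blue) and BRAFp53 (purple), with filled points for an adjusted p under 0.05. Sct and Pyy are filled in both BRAF-bearing genotypes of both tissues, and no p53 point is filled.

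In off organoids, all 10 genes had a higher mean in COL than in SI cultures in the fit of 3 COL against 3 SI cultures, and 7 passed the test (COL higher 17.0%, COL lower 12.6% of all genes). For those 7 genes (Neurog3, Neurod1, Chga, Gcg, Pyy, Sct and Nts) every COL culture lay above every SI culture. The widest gap was that of Pyy, the gene of peptide YY, which slows gut transit and curbs appetite. Its summed off libraries held 45.3, 66.6 and 35.6 CPM in the BRAF, p53 and BRAFp53 cultures of COL and 0.58, 0.29 and 0.24 CPM in those of SI. The edgeR log2 difference was 7.05 (SE 0.45, adjusted p = 0.000817). Gcg, whose product is cut into GLP-1 and related peptides in these cells, had 38.7, 74.6 and 67.4 CPM in COL against 8.06, 7.54 and 7.10 in SI, a log2 difference of 2.99 (SE 0.26, edgeR adjusted p = 0.00122). Nts, the gene of neurotensin, differed by 4.28 (SE 0.90, edgeR adjusted p = 0.0136), from 10.4 to 57.8 CPM in COL and 0.62 to 3.17 in SI. Neurod1 differed by 1.94 and Chga by 1.87 on the log2 scale, with edgeR adjusted p of 0.00312 and 0.0110.

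Smaller gaps were found for Neurog3 (log2 difference 1.16, edgeR adjusted p = 0.0326) and Sct (1.10, edgeR adjusted p = 0.0246). The Neurog3 call remained in 1 of 6 fits that left out a culture and the Sct call in 3 of 6, while those of Chga (adjusted p = 0.0504) and Nts (adjusted p = 0.0514) were lost in edgeR only without the SI p53 culture. Gcg, Neurod1 and Pyy were called in all 6. Cck (1.15), Chgb (0.90) and Tph1 (1.36) did not pass, although DESeq2 called Tph1 (adjusted p = 0.0478) and Chgb passed without the SI BRAFp53 culture (edgeR adjusted p = 0.0416). The COL cultures of Cck spanned 1.53 to 19.7 CPM around the 2.40 to 5.33 CPM of SI, so here the tissues overlapped. Lists of other epithelial types differed between the same off cultures. Called higher in COL were 6 of 9 goblet cell genes (median log2 difference 1.62), 5 of 9 tuft cell genes (1.78), 4 of 8 Paneth cell genes (2.11) and 7 of 14 genes of secretory progenitors (1.52, with 1 lower), beside a median of 1.62 for the 10 genes, while 8 of 9 enterocyte genes were called lower (-3.52). Of 6 stem cell genes, 4 were higher and 1 lower. Of the wider enteroendocrine set described below, 25 of 65 were higher and 3 lower. The part of these differences in the levels of the 10 genes was not tested.

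Per length of exon, Pyy and Chgb had the highest levels of the 10 genes in off COL cultures, with medians over 3 cultures of 71.8 and 59.0 CPM per kb. They were followed by Gcg (45.1), Nts (16.0), Chga (15.3), Sct (12.9), Neurog3 (5.64), Neurod1 (3.55), Cck (2.63) and Tph1 (0.92). Sct and Neurog3, and Neurog3 and Neurod1, did not overlap over the 3 cultures, and all other neighbours in this order did. In off SI cultures, Chgb led with 28.6 CPM per kb. Sct (6.81), Gcg (5.05) and Chga (3.78) came next, then Cck (2.61), Neurog3 (1.91), Neurod1 (1.07), Nts (0.61), Pyy (0.47) and Tph1 (0.24). Chgb and Sct, Sct and Gcg, and Neurog3 and Neurod1 did not overlap, and all other neighbours did. Pyy thus stood at place 1 in COL and place 9 in SI on the same scale. The 10 genes together took 0.0277% to 0.0850% of the counts of a COL library and 0.00728% to 0.0241% of those of an SI library, and Chgb was the highest in CPM in all 24.

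**Figure D2:**
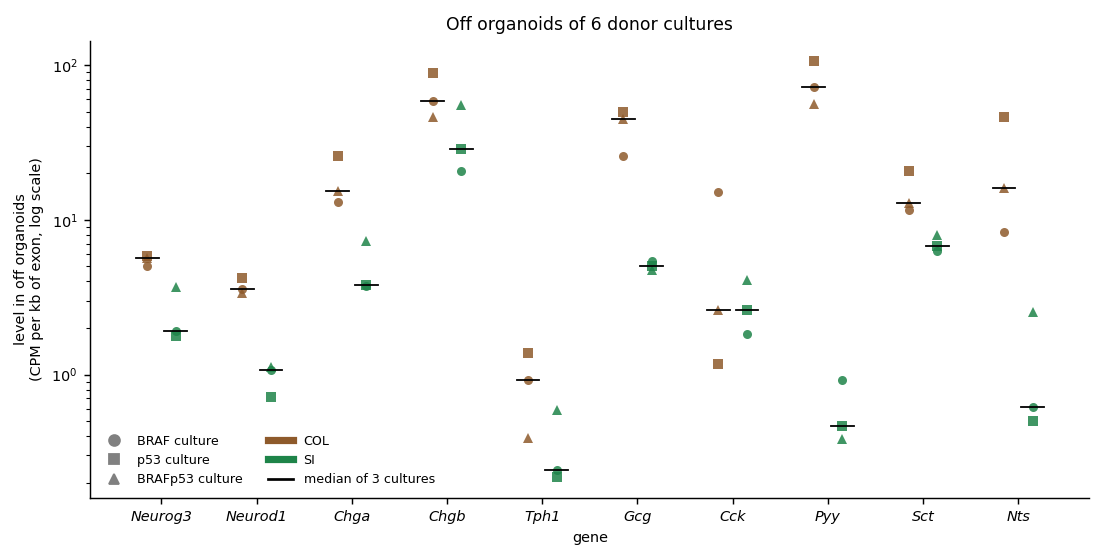
Level of the 10 genes in off organoids, as CPM per kb of exon on a log scale, for the 3 COL (brown) and 3 SI (green) cultures, each the sum of its 2 off libraries, with a bar at the median. Pyy shows the widest gap (medians 71.8 and 0.47), and the BRAF culture of COL stands above the others for Cck.

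Neurog3 (chr10:62133090-62134763, plus strand, GRCm38) is expressed briefly in the progenitors of these cells. It had 9.72 and 7.87 CPM in COL BRAF off and 5.42 and 9.70 in COL BRAF on, and 12.4 and 7.48 in COL BRAFp53 off and 8.25 and 10.3 in on. The libraries overlapped in both cultures, and the log2 fold changes of -0.22 and -0.10 did not pass (edgeR adjusted p = 0.670 and 0.854). In SI BRAFp53 the values were 4.09 and 6.78 CPM in off and 10.5 and 9.32 in on. Here on lay above off, with a log2 fold change of 0.87 (SE 0.30) that missed the threshold in edgeR (adjusted p = 0.0873) and passed it in limma-voom (adjusted p = 0.0225) and DESeq2 (adjusted p = 0.0393). In SI BRAF the log2 fold change was -0.08, or -0.68 without the library that stood apart (edgeR adjusted p = 0.879 and 0.145). In the p53 cultures it was 0.25 in COL and 0.55 in SI.

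Neurod1 (chr2:79452521-79456751, minus strand) ranged from 6.995 to 13.8 CPM over the 12 COL libraries and from 1.09 to 3.96 over the SI libraries, the narrowest spread of the 10 genes in COL. Its log2 fold changes lay between -0.31 (SI BRAF) and 0.52 (SI BRAFp53), with the lowest edgeR adjusted p at 0.248. Without the library that stood apart, SI BRAF gave -0.70 (edgeR adjusted p = 0.305). Neurog3 shares 273 exonic bases with Fam241b on the other strand and Neurod1 shares 355 with Cerkl and Gm26755. The use of strand in counting is not given in the sources used here, so reads there may be assigned to either gene. Fam241b had group means of 16.4 to 21.5 CPM, above those of Neurog3.

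Chga and Chgb encode chromogranins A and B, which pack the hormone granules. Chgb (chr2:132781278-132795079, plus strand) had 206 and 131 CPM in COL BRAF off and 367 and 333 in on, and 146 and 121 in COL BRAFp53 off and 346 and 290 in on. No on library overlapped the off libraries of its culture. Chgb rose by a log2 fold change of 1.06 (SE 0.19, edgeR adjusted p = 0.00218) and 1.25 (SE 0.19, edgeR adjusted p = 0.000987), and both calls held whichever library was left out. In COL p53 it had 277 and 234 CPM in off and 369 and 355 in on, a log2 fold change of 0.50 that did not pass (edgeR adjusted p = 0.449). In SI BRAF the values were 60.6 and 42.6 CPM in off and 109 and 54.4 in on, with overlap, and the log2 fold change was 0.67, or 0.10 without replicate 1 of the on group (edgeR adjusted p = 0.108 and 0.849). Without replicate 2 of the on group it was 1.07 and passed (edgeR adjusted p = 0.0113). In SI BRAFp53 it was 0.39.

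Chga (chr12:102554969-102565028, plus strand) had 46.3 and 28.0 CPM in COL BRAF off and 59.8 and 45.6 in on, which overlapped. In COL BRAFp53 it had 44.7 and 43.5 CPM in off and 71.7 and 58.1 in on, which did not. The log2 fold changes in COL BRAF, COL BRAFp53 and COL p53 were close together at 0.50, 0.56 and 0.55, and none passed (edgeR adjusted p = 0.169, 0.132 and 0.564). Without replicate 1 of the off group, COL BRAF passed, with 0.91 and an edgeR adjusted p of 0.0367. In SI BRAFp53, Chga went the other way, from 14.2 and 21.5 CPM in off to 7.94 and 7.82 in on. The log2 fold change of -1.18 (SE 0.41) missed the threshold with all SI libraries in the fit (edgeR adjusted p = 0.0846) and passed with the 4 libraries of that culture alone (edgeR adjusted p = 0.00556). SI BRAF had 11.8 and 6.94 CPM in off and 9.24 and 4.34 in on, which overlapped, and a log2 fold change of -0.45, or -1.09 without the library that stood apart (edgeR adjusted p = 0.444 and 0.107).

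Tph1 (chr7:46644641-46672537, minus strand) encodes the enzyme that limits serotonin synthesis outside the brain and marks the serotonin-storing enterochromaffin cells. It had 7.20 and 4.69 CPM in COL BRAF off and 21.3 and 19.4 in on. In COL BRAFp53 it had 2.79 and 2.22 CPM in off and 29.5 and 17.9 in on. The on libraries of the cultures reached similar levels from different off levels. Tph1 rose by 1.77 (SE 0.30, edgeR adjusted p = 0.00156) and 3.24 (SE 0.32, edgeR adjusted p = 7.29e-05) on the log2 scale, or 3.42-fold and 9.44-fold, and both calls held whichever library was left out. The difference of these responses was 1.47 (SE 0.42) and missed the threshold in edgeR (adjusted p = 0.0994), while DESeq2 called it (adjusted p = 0.0122). In SI the levels were lower, with 1.75 and 1.005 CPM in BRAF off and 4.69 and 2.19 in on, and 3.06 and 3.36 in BRAFp53 off and 5.65 and 6.94 in on. On lay above off in both, yet the log2 fold changes of 1.34 and 0.97 did not pass (edgeR adjusted p = 0.0950 and 0.309), and without the library that stood apart the former was 0.70 (edgeR adjusted p = 0.473). DESeq2 called the former (adjusted p = 0.0384). The p53 cultures gave 0.50 in COL and 0.52 in SI, neither of them called.

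Sct (chr7:141278330-141279133, minus strand) encodes secretin, which drives bicarbonate release from the pancreas. In COL BRAF, 8.95 and 6.63 CPM in off stood against 54.8 and 54.8 in on. In COL BRAFp53, 8.69 and 8.76 stood against 61.3 and 29.0. In all 4 BRAF-bearing cultures, on lay above off without overlap. In SI BRAF, 4.26 and 3.09 CPM in off stood against 25.6 and 24.7 in on, and in SI BRAFp53, 4.02 and 5.09 against 14.1 and 12.1. The p53 cultures had 15.0 and 12.9 CPM in off and 20.4 and 21.2 in on in COL, and 3.39 and 4.32 in off and 4.31 and 3.60 in on in SI.

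The log2 fold changes of Sct were 2.81 (SE 0.29, edgeR adjusted p = 7.71e-05) in COL BRAF, 2.37 (SE 0.28, edgeR adjusted p = 0.000243) in COL BRAFp53, 2.78 (SE 0.22, edgeR adjusted p = 1.13e-06) in SI BRAF and 1.52 (SE 0.21, edgeR adjusted p = 0.000346) in SI BRAFp53. These are 7.03-fold, 5.18-fold, 6.87-fold and 2.88-fold. All 4 calls held under each other setting tried and whichever library was left out, and SI BRAF gave 2.77 without the library that stood apart. In the p53 cultures the values were 0.57 in COL and 0.04 in SI, not called (edgeR adjusted p = 0.612 and 1.0). The Sct promoter window, printed above, was 1 of the 4 with at least 3 E-boxes.

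Pyy (chr11:102106676-102107832, minus strand) had 61.1 and 32.9 CPM in COL BRAF off and 168 and 139 in on, and 36.4 and 38.2 in COL BRAFp53 off and 143 and 83.0 in on. On lay above off in both. Pyy rose by 1.71 (SE 0.34, edgeR adjusted p = 0.00429) and 1.60 (SE 0.34, edgeR adjusted p = 0.00732) on the log2 scale, and the latter call was lost without replicate 1 of the on group (1.17, edgeR adjusted p = 0.0612). COL p53 had 83.8 and 55.0 CPM in off and 171 and 102 in on. There too on lay above off, with a log2 fold change of 0.98 (SE 0.33) that did not pass (edgeR adjusted p = 0.408).

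In SI, Pyy was close to the detection limit in off organoids. The off libraries held 36 and 20 counts in the BRAF culture, 1 and 34 in the p53 culture and 1 and 23 in the BRAFp53 culture. The on libraries held 776 and 648, 31 and 19, and 156 and 113 counts. In SI BRAF, 0.76 and 0.32 CPM in off thus stood against 15.5 and 16.7 in on, a log2 fold change of 4.92 (SE 0.83, edgeR adjusted p = 0.000566), or 4.99 without the library that stood apart. Without replicate 1 or 2 of the off group it was 5.63 or 4.40, both called (the higher edgeR adjusted p was 0.0108). The ratio of summed counts per effective library size was 31.3, with a 95% exact interval of 24.0 to 41.7 that covers counting error only and is narrower than this range between libraries. In SI BRAFp53 the fitted value was 3.40 (SE 0.88, edgeR adjusted p = 0.0236) and the ratio 10.5 (6.88 to 16.6). This call rested on the off library with 1 count and on replicate 1 of the on group. Without the former the log2 fold change was 2.47 (edgeR adjusted p = 0.136), without the latter 3.00 (edgeR adjusted p = 0.0860), and without the other off library it was 6.85 and called (edgeR adjusted p = 0.0132). DESeq2 gave an adjusted p of 0.0780. In SI p53 the ratio was 1.53 (0.975 to 2.43).

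Even at its SI maximum of 16.7 CPM, Pyy stayed under the lowest COL library at 32.9 CPM, with levels scaled within each tissue. The Pyy response to BRAFV600E was larger in SI than in COL by 3.29 on the log2 scale (SE 0.75, edgeR adjusted p = 0.00737, joint fit of 24 libraries). It was the sole called gene of the 10 in this comparison, in which 10.7% of all genes were called, a share close to 1 in 10. The call was lost with DESeq2 (adjusted p = 0.0676), with limma-voom (adjusted p = 0.0878) and without replicate 2 of the SI BRAF off group (2.73, edgeR adjusted p = 0.0733), and held without the SI BRAF on library that stood apart (3.35, edgeR adjusted p = 0.0117). Without replicate 1 of the COL BRAF off group Gcg was called as well (-2.12, edgeR adjusted p = 0.0450).

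**Figure D3:**
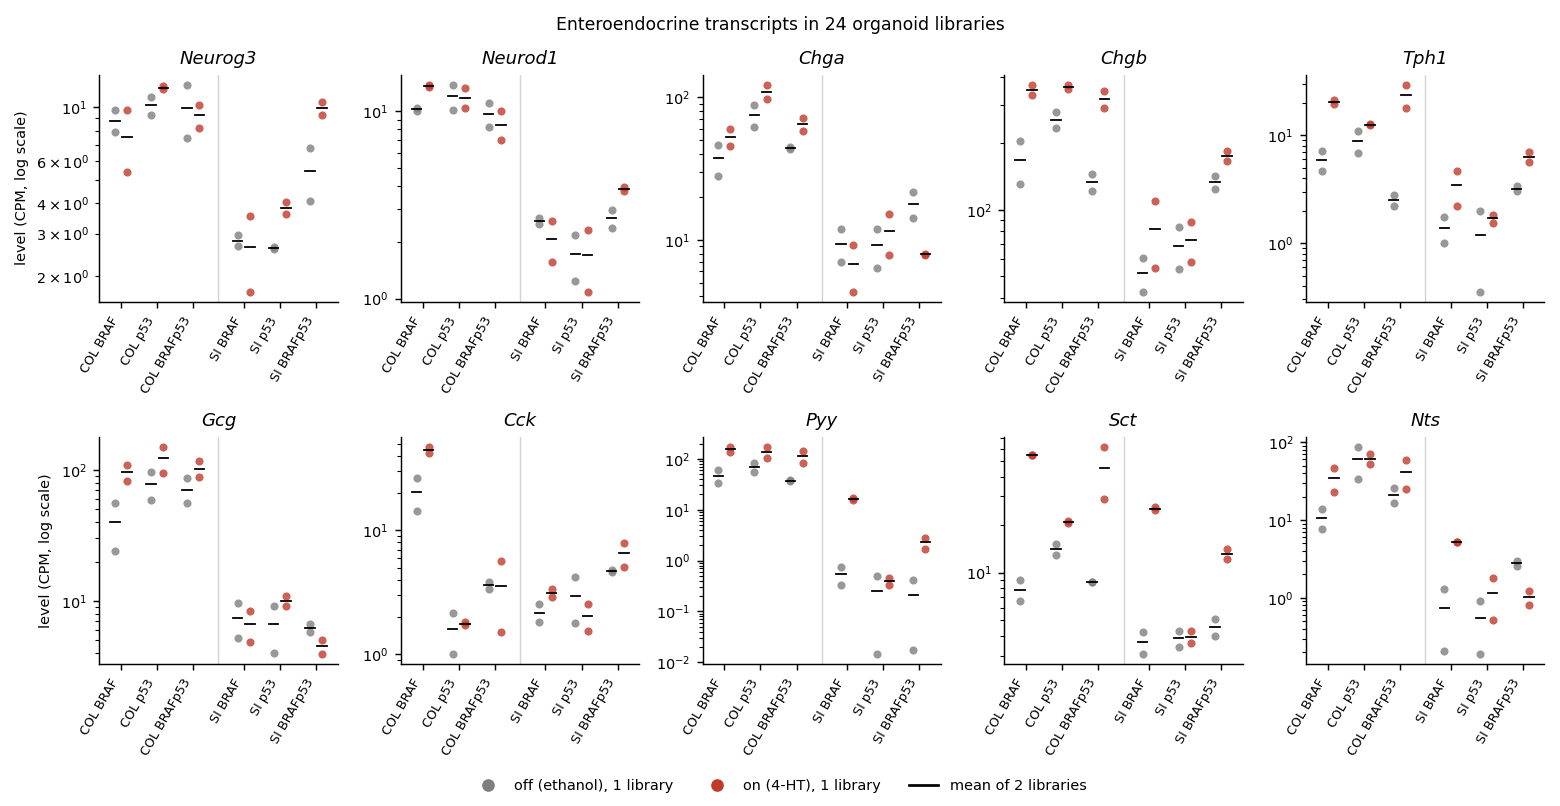
Level (CPM, log scale) of each of the 10 genes in all 24 libraries by tissue and culture, off in grey and on in red, with a bar at the mean of 2 libraries. On points lie above off points for Sct and Pyy in the 4 BRAF-bearing cultures, and the off libraries of Pyy in SI reach down to 0.0148 CPM.

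Nts (chr10:102481756-102490486, minus strand) gave opposite values in the BRAF-bearing SI cultures. In SI BRAF it had 1.29 and 0.21 CPM in off and 5.21 and 5.27 in on, whereas in SI BRAFp53 it had 2.58 and 3.01 in off and 0.82 and 1.23 in on. Neither culture had overlapping libraries. In SI BRAF Nts rose by 2.84 (SE 0.77, edgeR adjusted p = 0.0128), or 2.86 without the library that stood apart, and the call was lost without replicate 2 of the off group (2.02, edgeR adjusted p = 0.0893). Without replicate 1 of the off group the value was 4.62 (edgeR adjusted p = 0.00416). In SI BRAFp53 the log2 fold change was -1.44 (SE 0.73) and did not pass with all SI libraries in the fit (edgeR adjusted p = 0.251). With the 4 libraries of that culture alone it was -1.43 and passed (edgeR adjusted p = 0.0263). The difference of the 2 SI responses was -4.28 (SE 1.06) and passed (edgeR adjusted p = 0.0254). In COL BRAF, 13.9 and 7.61 CPM in off stood against 46.3 and 22.6 in on, a rise of 1.68 (SE 0.52, edgeR adjusted p = 0.0397) that was lost with limma-voom (adjusted p = 0.0840) and without any of 3 of the 4 libraries (both off replicates and replicate 1 of on, 1.05 to 2.18). COL BRAFp53 had 25.8 and 16.3 CPM in off and 58.5 and 25.4 in on, with overlap (a log2 fold change of 0.997, edgeR adjusted p = 0.203). The highest Nts level was in a COL p53 off library, with 86.5 CPM beside 33.6 in its replicate.

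Gcg (chr2:62474530-62483650, minus strand) had 55.9 and 23.9 CPM in COL BRAF off and 109 and 81.9 in on. It rose by 1.26 (SE 0.38, edgeR adjusted p = 0.0361), but the call was lost without replicate 2 of off (0.77, edgeR adjusted p = 0.218) and without either on library (1.02 and 1.44, edgeR adjusted p = 0.193 and 0.0569). Without replicate 1 of off it held, at 2.002 (edgeR adjusted p = 0.00855). COL BRAFp53 had 86.1 and 55.5 CPM in off and 116 and 88.5 in on (0.53, edgeR adjusted p = 0.369). In SI, Gcg stayed between 3.96 and 10.98 CPM in all 12 libraries, with log2 fold changes from -0.48 (BRAFp53) to 0.61 (p53), none called. SI BRAF gave -0.60 without the library that stood apart (edgeR adjusted p = 0.361).

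Cck (chr9:121489824-121495694, minus strand) encodes cholecystokinin, which contracts the gallbladder. Its level was set apart by culture more than by induction. The COL BRAF culture had 26.5 and 14.4 CPM in off and 41.9 and 47.1 in on, while the other 8 COL libraries had 1.01 to 5.66 and the SI libraries 1.53 to 7.98. The log2 fold change in COL BRAF was 1.12 (SE 0.47) and did not pass in edgeR (adjusted p = 0.116) or DESeq2, but passed in limma-voom (adjusted p = 0.0108). SI BRAF gave 0.53, or 0.44 without the library that stood apart (edgeR adjusted p = 0.338 and 0.556). The COL BRAF culture also held 141 and 88 counts of Gip, the gene of a hormone typical of the proximal small intestine, in off and 32 and 52 in on, where the other 8 COL libraries held 0. Its Gata4 level is given above, and its Fabp1, an enterocyte fatty acid binding protein gene, had an off mean of 97.4 CPM beside 0.56 and 0.18 in the other COL cultures. The part of these differences in the responses of that culture was not tested.

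For most of the 10 genes the second mutation made no called difference to the BRAFV600E response. In COL none passed in edgeR or limma-voom (0.907% of all genes were called), 1 had an unadjusted p under 0.05 and DESeq2 called 1, in both cases Tph1. The log2 differences ran from -1.11 (Cck) to 1.47 (Tph1). In SI, 2 passed beside 8.20% of all genes. Sct responded less in BRAFp53 than in BRAF by 1.26 on the log2 scale, at -1.26 (SE 0.29, edgeR adjusted p = 0.0190), and Nts by -4.28 as given above. Sct lost its call in 3 of 8 fits without 1 library (SI BRAF off replicate 2 and SI BRAFp53 off and on replicates 2) and Nts in 4 of 8 (SI BRAF off replicate 2, SI BRAFp53 off replicate 1 and both SI BRAFp53 on libraries), with values of -1.496 to -1.03 and -6.06 to -3.46. Without the library that stood apart they were -1.23 and -4.28, both called, and Neurog3 was then called too (1.56, edgeR adjusted p = 0.0244). Between tissues, the BRAFp53 responses differed for none of the 10 in edgeR, beside 3.52% of all genes, although 5 had an unadjusted p under 0.05 (Chga, Neurog3, Nts, Sct and Tph1). These were -2.39 for Nts (edgeR adjusted p = 0.165), -2.23 for Tph1 (edgeR adjusted p = 0.0777) and -1.70 for Chga (edgeR adjusted p = 0.0852), SI minus COL, with values nearer 0 for Neurog3 (1.01) and Sct (-0.80). Without replicate 2 of the COL BRAFp53 on group, Sct was called (-1.24, edgeR adjusted p = 0.0343). DESeq2 and limma-voom each called Tph1 (adjusted p = 0.0158 and 0.0490).

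In 10 of the 12 groups, the 2 libraries differed in the same direction for at least 7 of the 10 genes. In COL BRAF off and COL p53 off, all 10 were higher in replicate 1, with median log2 ratios of 0.69 and 0.55. In SI p53 off, 9 were higher in replicate 2, with a median of -1.06 and -5.08 for Pyy. In SI BRAF on, 8 were higher in replicate 1 (median 0.76), the library that stood apart. The on groups of COL p53 and SI BRAFp53 were even, with 5 genes each way. The genes therefore did not vary independently between libraries, and counts of genes called in 1 culture share this variation.

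**Figure D4:**
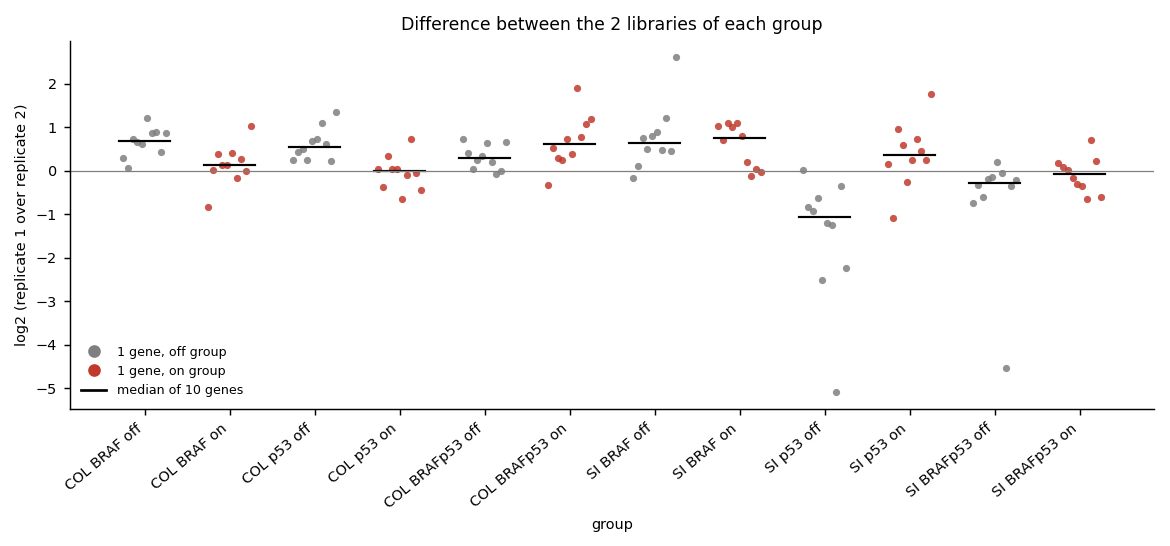
Log2 ratio of replicate 1 over replicate 2 for the 10 genes (points) in each group, off in grey and on in red, with a bar at the median. In COL BRAF off all 10 points lie above 0 and in SI p53 off 9 lie below it, while COL p53 on and SI BRAFp53 on have 5 on each side.

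A wider set of 74 enteroendocrine genes, of which 68 were tested in COL and 62 in SI, was read in the same fits. In COL BRAF, 12 rose and 2 fell, and in COL BRAFp53, 8 rose and 10 fell. In SI BRAF, 7 rose and 8 fell, and in SI BRAFp53, 4 rose and 2 fell, whereas the p53 cultures gave none in edgeR. Without the SI BRAF on library that stood apart, a repeat of the list counts chosen after seeing the data, 6 rose and 8 fell of 64 tested in SI BRAF. By role, 4 of 9 other hormones tested were called higher and 0 lower in each BRAF-bearing culture of COL, with medians of 1.43 in BRAF and 1.71 in BRAFp53. In SI 2 of 7 rose and 0 fell in BRAF (1 and 0 without that library), and 2 rose and 1 fell in BRAFp53. Of the 24 other transcription factors, 1 was called higher and 0 lower of 22 tested in COL BRAF, 0 and 4 in COL BRAFp53, 0 and 4 of 21 in SI BRAF, and 0 and 0 in SI BRAFp53, and their medians were -0.10, -0.51, -0.90 and 0.22 in the same order. The SI medians thus had opposite signs, with 15 of 21 factors positive in SI BRAFp53 and 3 in SI BRAF. Without that library 0 rose and 5 fell of 23 factors in SI BRAF, with a median of -0.93. Of the 20 other granule and secretion genes, 4 rose and 1 fell in COL BRAF, and 2 rose and 4 fell in COL BRAFp53. In SI BRAF 1 rose and 3 fell of 18 tested, with a median of -0.33, or 1 and 2 with a median of -0.88 without that library, and in SI BRAFp53 0 rose and 0 fell. Of 6 genes of amine synthesis and storage, 2 rose and 1 fell in COL BRAF, 1 and 2 in COL BRAFp53, 3 and 1 in SI BRAF (also without that library), and 1 and 1 in SI BRAFp53. Of 14 receptors and channels for sensing, 1 rose in each BRAF-bearing culture, in SI BRAF also without that library. Shares of all genes called are those given above.

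Among these, Iapp, the gene of amylin, rose by 2.79 (SE 0.40, edgeR adjusted p = 0.000607) in COL BRAF, from 0.40 to 2.79 CPM. Insl5, a hormone gene of distal colon cells, was fitted at 5.13 there, but the off libraries held 1 and 0 counts and the on libraries 5 and 30. In COL BRAFp53 Iapp rose by 1.93 (edgeR adjusted p = 0.00433). Scg2, a granin, rose by 2.05 in both COL BRAF and COL BRAFp53 (edgeR adjusted p = 0.0148 and 0.0158). Tac1, which encodes the substance P made by serotonin-storing cells, rose by 2.69 in COL BRAFp53 (SE 0.24, edgeR adjusted p = 5.36e-05). It rose too in COL BRAF (1.62, edgeR adjusted p = 0.000619), SI BRAF (1.40, edgeR adjusted p = 0.0360) and SI BRAFp53 (1.501, edgeR adjusted p = 0.0428), but the SI BRAF call was lost without the library that stood apart (0.86, edgeR adjusted p = 0.252). Gch1, the first enzyme in making the cofactor of TPH1, rose by 1.48 and 1.72 in SI BRAF and SI BRAFp53 (edgeR adjusted p = 0.000255 and 0.000247), and by 1.41 and 1.07 in COL BRAF and COL BRAFp53 (edgeR adjusted p = 0.00229 and 0.0126). In SI BRAF it was 1.69 without the library that stood apart. Pts, another gene of the amine list, was called lower in all BRAF-bearing cultures. Its values were -0.69 in COL BRAF and -0.41 in COL BRAFp53 (edgeR adjusted p = 0.00253 and 0.0416). In SI BRAF and SI BRAFp53 they were -0.52 and -0.82 (edgeR adjusted p = 0.00821 and 0.00121), and -0.65 in SI BRAF without that library.

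Ghrl, the gene of ghrelin, rose by 1.80 in SI BRAFp53 (SE 0.23, edgeR adjusted p = 0.000212), by 1.43 in COL BRAF and by 1.71 in COL BRAFp53 (edgeR adjusted p = 0.0272 and 0.0173). In SI BRAF it gave 0.41, not called (edgeR adjusted p = 0.230), or 0.26 without the library that stood apart. Sst, the gene of somatostatin, fell in SI BRAFp53, from 82 and 150 counts in off to 0 and 5 in on (edgeR adjusted p = 0.00587), beside 17 and 10 counts in SI BRAF off and 91 and 5 in on. The difference of the SI responses passed (-7.55, edgeR adjusted p = 0.00723), and did not pass without the SI BRAF on library with 91 counts, the one that stood apart (-4.62, edgeR adjusted p = 0.0525). Pcsk1, a protease that cuts prohormones, fell by 1.17 in COL BRAF (edgeR adjusted p = 0.00147) and by 0.65 in COL BRAFp53 (edgeR adjusted p = 0.0347). Prox1, a factor also active outside these cells, went from 60 and 20 counts to 0 and 2 in SI BRAF (edgeR adjusted p = 0.00570) and fell by 1.60 in COL BRAFp53 (edgeR adjusted p = 0.00912). Its value in COL BRAF was positive at 0.69, not called (edgeR adjusted p = 0.209). Cplx2, a regulator of granule release, fell by 1.53 in COL BRAFp53 and 2.14 in SI BRAF (edgeR adjusted p = 0.00586 and 0.000976). Without the library that stood apart, both kept their calls in SI BRAF, with -3.87 for Prox1 and -1.94 for Cplx2 (edgeR adjusted p = 0.0383 and 0.00920). In SI BRAFp53 their values were 0.80 and 0.03, not called, and the differences of the SI responses passed for both (5.76 and 2.17, edgeR adjusted p = 0.0296 and 0.0220). Without that library the difference was 4.68 for Prox1 (edgeR adjusted p = 0.0635), no longer called, and 1.99 for Cplx2 (edgeR adjusted p = 0.0484). Of 62 genes of the wider set tested, 5 responded higher in SI BRAFp53 than in SI BRAF and 1 lower. Over all genes, 325 of 16856 were called higher and 1058 lower in this comparison. The median difference of the wider set was 0.32, or 0.67 without that library.

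Levels of other cell types moved in the same libraries. Over all genes, 10.3% were called higher and 9.61% lower in COL BRAF, and 9.95% and 7.76% in COL BRAFp53. In SI BRAF 17.5% and 14.2% were called, and in SI BRAFp53 6.98% and 4.53%. Of 14 genes of secretory progenitors, 1 rose and 5 fell in COL BRAF, and 4 and 5 in COL BRAFp53. In SI, 4 rose and 4 fell in BRAF, and 4 and 1 in BRAFp53. Their median in SI BRAF was -0.35, or -0.24 without the library that stood apart. Of 9 goblet cell genes (8 tested in SI), 5 rose in COL BRAF, 5 in COL BRAFp53, 4 in SI BRAF and 8 in SI BRAFp53, and none fell with all libraries in the fit. In the BRAF-bearing SI cultures, their summed level was 602 to 977 CPM in off libraries and 1483 to 2063 CPM in on libraries. Of 6 stem cell genes, 5, 5, 6 and 1 fell in the same order and none rose. Of 9 enterocyte genes, all rose in SI BRAF, and 4 rose in SI BRAFp53, while in COL 2 rose and 4 fell with BRAF and 2 rose and 3 fell with BRAFp53. Of 8 Paneth cell genes, 5 fell in SI BRAF and 5 rose in SI BRAFp53. In COL 2 of them rose and 0 fell with BRAF, and 2 rose and 2 fell with BRAFp53. Of 9 tuft cell genes tested, 6 fell in SI BRAF, 1 in SI BRAFp53 and 3 in COL BRAFp53, with none higher, while in COL BRAF 1 rose and 0 fell. In the p53 cultures none of the genes of these lists was called in SI, and in COL the 2 called were enterocyte genes that fell (-1.85 for Apoa1 and -1.996 for Sis on the log2 scale, edgeR adjusted p = 0.00890 and 0.0456), with 0 of 9 enterocyte genes positive and a median of -1.07, beside the median of 0.50 of the 10 genes there. Both calls were lost without replicate 1 of the COL p53 off group, when edgeR called 0 of all genes and 765 had an unadjusted p under 0.05. Without the SI BRAF on library that stood apart, 4 goblet cell genes rose and 1 fell in SI BRAF, all 6 stem cell genes fell, all 9 enterocyte genes rose, 5 Paneth cell genes fell and 7 of 10 tuft cell genes fell. Neurons also express several of the 10 genes. Of 9 neuronal and glial markers, 2 to 6 were at or under 3 counts in a library, with summed levels of 5.58 to 12.7 CPM in COL and 2.30 to 4.34 in SI. Sox10 was at 0 counts in all 24 libraries. Of 11 stromal and immune markers, 2 to 8 were at or under 3 counts. Their summed levels were 20.1 to 61.2 CPM in COL and 3.64 to 13.0 in SI. The mean sum went from 54.5 in off to 24.5 CPM in on in COL BRAFp53, and from 6.32 to 11.8 in SI BRAFp53. Of 9 tested in COL, 1 rose and 1 fell in each BRAF-bearing culture. The part of the other epithelial types in the results was not tested.

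The genes whose log2 CPM followed that of Chga most closely over the 12 libraries of a tissue were Slc31a2 (Pearson r = 0.93), Hspa2, Blnk, Bsdc1 and Pappa2 in COL, and Alg6 (r = 0.93), Gip, Zfp280b, 1700007L15Rik and Psma2 in SI. Of the other 9 genes, Nts was the nearest to Chga in COL (r = 0.89, rank 20 of 18971) and Gcg in SI (r = 0.51, rank 2298 of 16855). Sct had r = 0.39 with Chga in COL and -0.39 in SI. For Neurog3 the closest were Mindy4 (r = 0.89), Gm16401, Gm3756, Tmem44 and Fkbpl in COL, and Tspan12 (r = 0.96), Fxyd3, Cldn2, Reep5 and Cd44 in SI. Chgb had r = 0.85 with Neurog3 in SI (rank 35) and 0.09 in COL. The 12 points share 3 cultures and 2 states, so these values are a description.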

How the data were processed

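The deposited values are raw counts per gene and library, made by the authors without normalization. According to the study's methods, reads were trimmed (Trimmomatic 0.36 in the submitters' processing notes) and aligned to GRCm38 and counted per gene with STAR (2.5.2b), and the annotation release and use of strand are not given in the sources used here. Of 45706 identifiers, 45143 matched a symbol of GENCODE M21, whose exons gave lengths, and all columns were assigned by their labels. The genes and lists were chosen with earlier results of these data known.

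Within a tissue, counts were scaled by TMM, filtered with filterByExpr and fitted over 12 libraries with a mean per group (glmQLFit and glmQLFTest, edgeR 4.0.16, R 4.3.3). The study used limma, which was run here as an alternative. Tissue differences of responses came from a joint fit of 24 libraries, and off tissues were compared over 3 against 3 cultures, each the sum of 2 libraries. P-values were adjusted by Benjamini-Hochberg over all genes of a fit, SE is the log2 fold change over the root of F, and a call needs an adjusted p under 0.05. P-values of responses and their differences measure the spread between libraries of the same culture, pooled over the groups of a fit. This spread may be technical. P-values of the off tissues measure the spread between the 3 cultures of a tissue, which differ in genotype. The fits were first tested on simulated data with known changes. Of log2 changes of 1, 42.2% were called in COL BRAF, 56.3% in SI BRAF, 27.1% in the BRAF tissue difference and 6.25% between off tissues. Of log2 changes of 2, 65.7%, 67.9%, 55.3% and 50.9% were called in the same order.

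Alternatives were RLE size factors, no filter, a minimum of 10 counts per library, limma-voom (limma 3.58.1), DESeq2 1.42.0, a further limit of 1 on the size of the log2 fold change, the 4 libraries of a culture alone, a replicate block and leaving out each library or culture. Named genes were all 10 in every comparison and Trp53 and Dusp6 (with Braf, not printed) as checks. They were also, from the wider lists, up to 4 called genes per direction with the largest change, of which the text gives a part, the first genes of marker lists, and the 5 genes most correlated with Chga and with Neurog3 (prior count 1). Xist, Ddx3y, Olfm4, Car1, Lct, Apoa1, Sis, Gip, Gata4, Fabp1 and Fam241b were named after their values were seen. Replicates differed by a chi-square of 22.3 to 102 per degree of freedom, so none was a copy. Promoter windows came from RefSeq, and proteins are not analysed here.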

Additional observations from a re-analysis of the deposited data

Results flagged for a closer look

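Among the 10 genes, the responses of 3 differed by the test of the difference itself. The Pyy response to BRAFV600E was larger in SI than in COL by 3.29 on the log2 scale (edgeR adjusted p = 0.00737), where the off level was 0.58 CPM in SI and 45.3 CPM in COL, and DESeq2 and limma-voom did not call it. The Nts response in SI was lower in BRAFp53 than in BRAF, with a difference of -4.28 (edgeR adjusted p = 0.0254), and the call was lost in 4 of 8 fits that left out 1 library (-6.06 to -3.46). The off groups of these cultures already differed, with 0.75 CPM in BRAF and 2.80 CPM in BRAFp53, and genotype cannot be told apart from donor culture. The Sct response in SI was lower in BRAFp53 as well, with a difference of -1.26 (edgeR adjusted p = 0.0190), from off levels of 3.68 and 4.55 CPM, and this call was lost in 3 of 8 such fits (-1.496 to -1.03).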

How the results depend on the processing

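Under settings other than leaving out a library, 64 of 82 counts of called genes stayed within 1.5 times the value given. Without a filter on low counts, more of the 10 genes were called in COL BRAFp53 (7), COL p53 (4), SI BRAF (5), SI BRAFp53 (7), the COL difference of BRAFp53 and BRAF (3), and the SI minus COL differences for BRAF (4) and BRAFp53 (7). Over all genes, that setting called 2293 higher and 1773 lower in COL BRAFp53, and 194 and 375 in COL p53, of 30407. With the filter, 6 and 21 of 18972 were called in COL p53. Without it, 2991 and 2692 were called in SI BRAF and 1486 and 1033 in SI BRAFp53, of 26898. The COL difference gave 712 and 600 of 30407. The tissue differences gave 1683 and 897 (BRAF) and 783 and 765 (BRAFp53) of 31779. The cause of these rises was not tested. With at least 10 counts in every library, SI BRAFp53 fell to 1 and the BRAF tissue difference to 0, since Pyy was then not tested, and the BRAFp53 tissue difference rose to 2. DESeq2 gave 1 for the COL difference of BRAFp53 and BRAF, 0 for the BRAF and 1 for the BRAFp53 tissue difference, and limma-voom gave 0 and 1 for the latter 2. SI BRAFp53 alone gave 7, of which Chga and Nts were lower, beside 1373 genes higher and 783 lower of 15325. Leaving out 1 library or culture gave counts of 1 to 2 in SI BRAFp53, 0 to 3 for the SI difference of BRAFp53 and BRAF, 0 to 2 and 0 to 1 for the BRAF and BRAFp53 tissue differences, and 3 to 7 for off tissues. The causes were not tested.

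With the replicate block, SI BRAFp53 had 1 call (without Pyy, adjusted p = 0.0510) and the BRAFp53 tissue difference 1 (Tph1, adjusted p = 0.0428), and Chga was called in COL BRAF (adjusted p = 0.0277) and COL BRAFp53 (adjusted p = 0.0281). The numbers share only a name, since deviations of same-numbered libraries correlated at -0.04 to 0.05 in the 6 cultures. No called log2 fold change turned its sign. Uncalled values did so in 6 cases under other settings, all within 0.24 of 0 (Cck in COL BRAFp53, Neurod1 in COL p53 and Sct between tissues), and in 58 cases without 1 library or culture. RLE factors moved 2 of 120 levels by more than 1 SD.

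With 2 libraries per group, a gene that was not called is not shown to be stable. When 1 of 2 libraries is left out, the lone one is assumed to vary like the other groups.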
